A study of Mus musculus with 6 samples.

Results

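The genes described here are 8 members of subfamily C of the ATP-binding cassette (ABC) transporters: Abcc1, Abcc2, Abcc3, Abcc4, Abcc5, Abcc6, Abcc10 and Cftr. They were taken by gene symbol from a table of 20896 mouse transcripts with 1 transcript per gene, and all 8 were found once and passed the filter on low reads that left 16683 genes. The rule holds no threshold, but the names were chosen by symbol with the read values and the dKO over control differences of these clones already known, so levels and differences below describe these clones, and nothing is supported with them. RNA came from clones of mpkCCD, a mouse line derived from the cortical collecting duct of the kidney, where vasopressin controls water uptake. There were 3 clones labelled PKA dKO, for double knockout of protein kinase A made with CRISPR-Cas9 according to the series title, and 3 control clones, with 1 library for each clone. The labels name no edited gene. All 6 clones were grown on permeable supports for 4 days with 2% serum, insulin, dexamethasone, triiodothyronine, epidermal growth factor, selenite and transferrin, and were then kept for 3 days without serum or these hormones and with 0.1 nM dDAVP, an agonist selective for the vasopressin V2 receptor. Every clone is a separate line, so differences between clones that have nothing to do with PKA are part of the spread, and no library without dDAVP was analysed here.

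Most ABCC proteins use ATP to pump organic anions out of the cell, many of them joined to glutathione, glucuronide or sulfate. Abcc4 (also MRP4) also exports cyclic AMP, the messenger that vasopressin raises in collecting duct cells and that activates PKA. Among the members described here, Cftr is an ion channel and not an exporter. It is a chloride channel that opens with ATP once PKA has phosphorylated its regulatory domain, and its loss causes cystic fibrosis in humans. The series asks which RNAs depend on PKA. For these genes the comparison shows whether clones labelled as lacking PKA carried other amounts of mRNA for an exporter of cyclic AMP, for a channel that PKA opens, and for their relatives.

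The promoters of Abcc4 and Cftr are shown because these genes act on either side of PKA and cyclic AMP is known to act on transcription through CREB, which binds the cyclic AMP response element (CRE) TGACGTCA. The sequences come from RefSeq (GRCm38.p6), which had a promoter for 5 of the 8 members (Abcc2, Abcc4, Abcc5, Abcc10 and Cftr; 7 promoters, since some have alternative starts), and none for Abcc1, Abcc3 and Abcc6 in the table used. Each runs from 250 bases before the start site to 50 bases from it onward, 5′ to 3′ on the gene's own strand. Abcc4 lies at chr14:118706170-118706469 (minus strand), and Cftr at chr6:18170437-18170736 (plus strand). Capitals mark GC boxes (GGGCGG), the core of the antioxidant response element (TGACNNNGC) and the CRE with any base at its position 5 (TGACNTCA), each searched on both strands.
Abcc4: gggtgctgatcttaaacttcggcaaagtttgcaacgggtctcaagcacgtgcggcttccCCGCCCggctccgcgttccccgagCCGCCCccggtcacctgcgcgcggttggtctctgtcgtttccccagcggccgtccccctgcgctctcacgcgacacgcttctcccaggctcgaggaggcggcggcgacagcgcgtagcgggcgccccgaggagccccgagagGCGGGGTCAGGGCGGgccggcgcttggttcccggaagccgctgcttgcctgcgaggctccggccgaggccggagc
Cftr: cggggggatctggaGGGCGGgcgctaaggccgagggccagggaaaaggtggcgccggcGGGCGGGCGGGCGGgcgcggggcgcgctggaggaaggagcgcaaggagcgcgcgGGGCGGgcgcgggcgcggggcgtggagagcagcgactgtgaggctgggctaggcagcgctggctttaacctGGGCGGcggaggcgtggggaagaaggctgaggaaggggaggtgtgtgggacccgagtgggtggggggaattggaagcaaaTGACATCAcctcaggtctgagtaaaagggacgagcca

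Both windows were rich in G and C (72.7% for Abcc4 and 71.3% for Cftr). None of the 7 member promoters held the full CRE, which 1.79% of all 32851 promoters in the table held, or the CRE half-site TGACG, which is part of it and was in 20.8%. The Cftr window held TGACATCA from base 14 onward, counted from the start site as 1, which differs from the CRE by the substitution G5A (counted from the first base of TGACGTCA). TGACNTCA was found in 2 of the 7 member promoters, this one and that of an alternative Abcc4 start, against 8.83% of all promoters. The antioxidant core was found in 5 of the 7 (both Abcc4 starts, both Abcc10 starts and Abcc2) and in 12.4% of all promoters; in the Abcc4 window above it begins at base -25 and is followed directly by a GC box. These matches describe the letters in these windows and not binding.

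The libraries held 28596444 to 42515838 recovered reads. The label was checked on Prkaca, the gene of the PKA catalytic subunit alpha, taken here to be one of the edited genes. It had 6.65, 8.49 and 7.44 CPM (recovered reads of the gene per 1000000 reads of the library, adjusted for library composition) in dKO clones 1, 2 and 3, against 133, 75.8 and 90.6 CPM in control clones 1, 2 and 3 (limma adjusted p = 1.59e-05). Prkacb, the gene of the beta subunit, had 103 ± 3.43 CPM in dKO clones and 121 ± 14.7 CPM in control clones (SD, n = 3 each) and did not pass the test. Principal-cell markers were present, 10 of 11 at a mean of 1 CPM or more, with a summed level of 1230 to 1341 CPM in dKO clones and 1140 to 1737 CPM in control clones. These sums rest mainly on Tfcp2l1 and Scnn1a and hide Aqp2, the vasopressin-regulated water channel gene, which fell to 3.39, 2.72 and 1.82 CPM in dKO clones 1, 2 and 3, against 399, 139.8 and 157 CPM in control clones 1, 2 and 3 (log2 fold change -6.30, limma adjusted p = 1.59e-05). The other 10 principal-cell markers did not pass the test. Proximal tubule markers summed to 702 to 870 CPM in dKO clones against 314 to 412 CPM in control clones; without Lrp2, the megalin gene, the other 7 summed to 11.7 to 18.8 CPM in dKO clones and 9.10 to 20.2 CPM in control clones. The summed markers of thick ascending limb, fibroblast, endothelium and leukocytes stayed at or under 5.29 CPM in dKO clones and at or under 9.52 CPM in control clones, and those of the distal convoluted tubule between 7.21 and 22.1 CPM. Intercalated-cell markers summed to 24.8 to 54.1 CPM in dKO clones and 31.3 to 52.3 CPM in control clones. On the first principal component (68.1% of the variance) dKO clone 3 lay at -76.8 and control clone 1 at -91.7, apart from the remaining 4 libraries at 20.9 to 74.1. In these 2 libraries 51.0% (dKO clone 3) and 50.8% (control clone 1) of 1351 transcripts of olfactory and vomeronasal receptors, best known from sensory neurons, had a read, against 81.9% to 87.4% in the other 4. Since each group holds one of them, values are also given within the other 4 clones, 2 from each group.

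Per length of transcript, the family in these cells consisted mainly of Abcc1 and Abcc4. Means over all 6 clones were 47.0 CPM per kilobase for Abcc1, 25.1 for Abcc4, 9.64 for Abcc5, 5.08 for Abcc3, 1.71 for Abcc10, 0.376 for Abcc2, 0.177 for Cftr and 0.133 CPM per kilobase for Abcc6. Each gene lay above the next in all 6 clones, except for Abcc5 over Abcc3 and Cftr over Abcc6, which held in 5 of 6, so neither of these pairs has a firm order. Abcc1, Abcc4 and Abcc5 together made up 91.5% to 94.8% of the family's summed level in dKO clones and 88.6% to 91.7% in control clones. The summed level of all 8 genes was 79.3, 71.2 and 72.2 CPM per kilobase in dKO clones 1, 2 and 3, against 131, 88.3 and 93.1 in control clones 1, 2 and 3. The groups did not overlap in this sum, and control clone 1 was the highest by far. The sum rests mainly on Abcc1 and Abcc4 and does not stand for each member. Taken singly, only Abcc3 and Abcc4 did not overlap between the groups. No share over all genes was computed for such a sum.

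**Figure D1:**
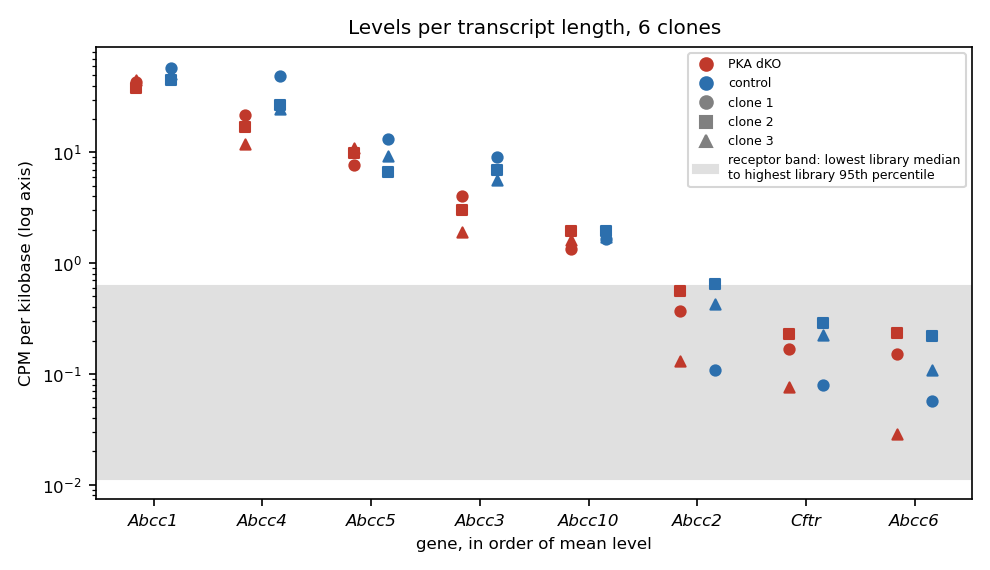
Level of each member per transcript length (vertical log axis, CPM per kilobase) in 3 PKA dKO clones (red) and 3 control clones (blue), with genes in order of their mean; the grey band runs from the lowest library median (0.0113) to the highest 95th percentile (0.627) of olfactory and vomeronasal receptor transcripts. Abcc1, Abcc4, Abcc5, Abcc3 and Abcc10 lie above the band in every clone, and Cftr and Abcc6 lie within it in every clone.

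Abcc4, the exporter of cyclic AMP, was lower in every dKO clone than in any control clone (ENSMUSG00000032849.14; transcript ENSMUST00000036554.12, GRCm38 chr14:118482692-118706219, minus strand, protein-coding). It had 124, 96.3 and 68.1 CPM in dKO clones 1, 2 and 3, against 275, 152 and 138 CPM in control clones 1, 2 and 3. The groups did not overlap, but dKO clone 1 lay close to control clone 3, and the 2 extreme values were those of the 2 libraries that stood apart. Means were 96.2 ± 28.1 CPM in dKO clones and 189 ± 75.5 CPM in control clones (SD, n = 3 each), from 2426 to 4990 reads in dKO libraries and 4653 to 9957 in control libraries. The log2 fold change was -0.94 (SE 0.27), a level 1.92-fold lower with a 95% interval of 1.28 to 2.88. In the fit across all genes this did not pass (limma adjusted p = 0.336), whereas the authors' deposited table, made with edgeR, gives Abcc4 a log2 fold change of -0.95 and a false discovery rate of 0.00473.

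The size of the Abcc4 difference depended on the clones used. Within the 4 clones other than dKO clone 3 and control clone 1 the log2 fold change was -0.40 (SE 0.14), 1.32-fold lower with an interval of 1.08 to 1.62, and did not pass (limma adjusted p = 0.155). Between dKO clone 3 and control clone 1 it was -2.02. Chromosome 14, which carries Abcc4, had its own shift in these libraries: the median deviation of its 573 tested genes from their mean over the 6 clones was -0.44 in dKO clone 3 and 0.28 in control clone 1, on the log2 scale, and between -0.03 and 0.13 in the other 4. Abcc4 itself deviated by -0.93 in dKO clone 3 and 1.09 in control clone 1, further than the median of its chromosome in both. With each library's chromosome medians removed, the values of Abcc4 lay between -0.55 and -0.14 in dKO clones and between 0.10 and 0.81 in control clones. The groups did not overlap there, which also held for Abcc1 and Abcc3. The share of all genes without overlap in that setting was not computed. The Abcc4 difference was -0.74 on the log2 scale with an SE of 0.19 (limma adjusted p = 0.252). Within the 4 clones with these medians removed the Abcc4 difference was -0.45 (SE 0.13), which passed (limma adjusted p = 0.0324). In that fit 4.34% of all genes passed, 2.05% of all genes being lower in dKO clones. That last setting was chosen after the data were seen. Its 4 clones are part of the 6, so the pass is no independent check.

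All 10 of the nearest genes with at least 1 CPM, 5 on each side of Abcc4 and up to 12.7 Mb away, had a negative log2 fold change, with a median of -0.39 and a range of -0.68 to -0.18. The log2 fold change of Abcc4 was thus more negative than that of each of these neighbours. In single libraries this did not hold. Sox21 (-2.40), Gpc6 (-1.54) and Uggt2 (-1.35) deviated further down than Abcc4 (-0.93) in dKO clone 3, and the remaining neighbours less. Sox21 also stood above Abcc4 in control clone 1 (1.61 against 1.09). The neighbours' median deviation was -0.42 in dKO clone 3 and 0.39 in control clone 1. Over the 6 clones, the genes whose log2 levels were most like that of Abcc4 among 12462 were Bin3 (Pearson r = 0.998), 2310007B03Rik (0.997) and Psmb5, a proteasome subunit gene (0.995). Bin3 and Psmb5 are on chromosome 14 as well. With only 6 libraries, 300 genes had an r above 0.9, and the libraries that stood apart weigh heavily in each.

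**Figure D2:**
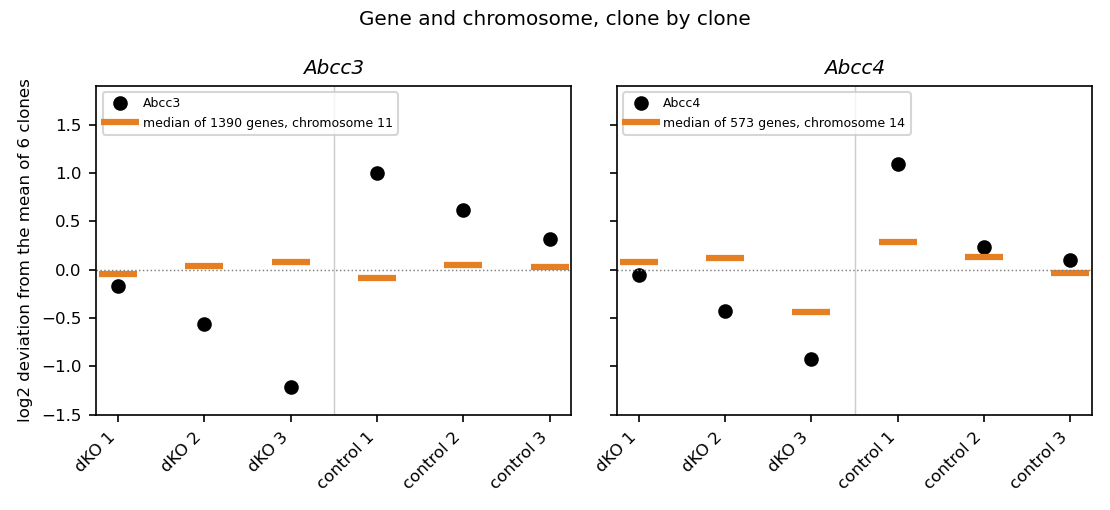
Log2 deviation of Abcc3 and Abcc4 from their mean over 6 clones (black points, vertical axis) in each clone, beside the median deviation of all tested genes on the same chromosome (orange bars). The chromosome 14 median lies at -0.44 in dKO clone 3 and 0.28 in control clone 1, whereas the chromosome 11 median stays between -0.08 and 0.08.

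Abcc3, an exporter of bile acids and glucuronides on the basolateral side of epithelial cells, showed the most negative log2 fold change of the 8 (ENSMUSG00000020865.16; ENSMUST00000178136.7, chr11:94343295-94392976, minus strand, protein-coding, 31 exons). It had 19.8, 15.0 and 9.51 CPM in dKO clones 1, 2 and 3, against 44.5, 34.2 and 27.7 CPM in control clones 1, 2 and 3. Every dKO clone lay below every control clone. Means were 14.8 ± 5.13 CPM in dKO clones and 35.5 ± 8.50 CPM in control clones (SD, n = 3 each), on 339 to 794 reads in dKO libraries and 1044 to 1610 in control libraries. The log2 fold change of -1.30 (SE 0.26) corresponds to a 2.45-fold lower level with a 95% interval of 1.65 to 3.65. It did not pass over all genes (limma adjusted p = 0.113), and the authors' deposited table gives -1.26 with a false discovery rate of 1.53e-04.

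For Abcc3 the chromosome moved little: the median deviation of the 1390 tested genes of chromosome 11 lay between -0.08 and 0.08 in all 6 libraries, and removing chromosome medians left a log2 fold change of -1.32. Of its 10 nearest genes with at least 1 CPM, 5 had a negative log2 fold change, and their median was -0.02. Within the 4 clones the log2 fold change of Abcc3 was -0.83 (SE 0.18), 1.77-fold lower with an interval of 1.37 to 2.29, and passed in that smaller set (limma adjusted p = 0.00553), beside 3.00% of the 17252 genes tested there and 1.47% lower in dKO clones. The 4 clones are part of the 6, so this is no independent check. Between dKO clone 3 and control clone 1 the difference was -2.22. The log2 levels of Abcc3 and Abcc4 ran together over the 6 clones (Pearson r = 0.96, n = 6, a description).

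Abcc3 and Abcc4 were the 2 of 8 members in which the dKO clones lay wholly below the control clones, which held for 5.67% of all genes tested. In the fit across all genes, 28 genes passed at an adjusted p under 0.05 (0.168%; 0.0539% higher and 0.114% lower in dKO clones), and 0 of the 8 members were among them. A negative log2 fold change was found in 7 of 8 members and in 50.2% of all genes. At an unadjusted p under 0.05 there were 2 members, again Abcc3 and Abcc4 and both lower, beside 6.24% of all genes and 3.84% lower. edgeR's quasi-likelihood test on the recovered reads called 0 of the 8 and 0.168% of all genes, 0.114% lower (adjusted p = 0.116 for Abcc3 and 0.334 for Abcc4). DESeq2 on the same reads called both, with adjusted p = 4.35e-04 and 0.0145, beside 1.25% of all genes and 0.899% lower. The authors' deposited table, which holds 10190 transcripts and 5 of the members, has 3.47% of its rows under a false discovery rate of 0.05 and 2.49% so and lower, Abcc3 and Abcc4 among them. The same libraries thus gave a call or none for these genes according to the fit used. Why the fits differ was not tested, and edgeR gave both outcomes for Abcc3 and for Abcc4. The sign of their difference was negative in all 20 alternative settings. These settings reuse the same libraries, and since the groups did not overlap, leaving out clones could hardly turn the sign.

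**Figure D3:**
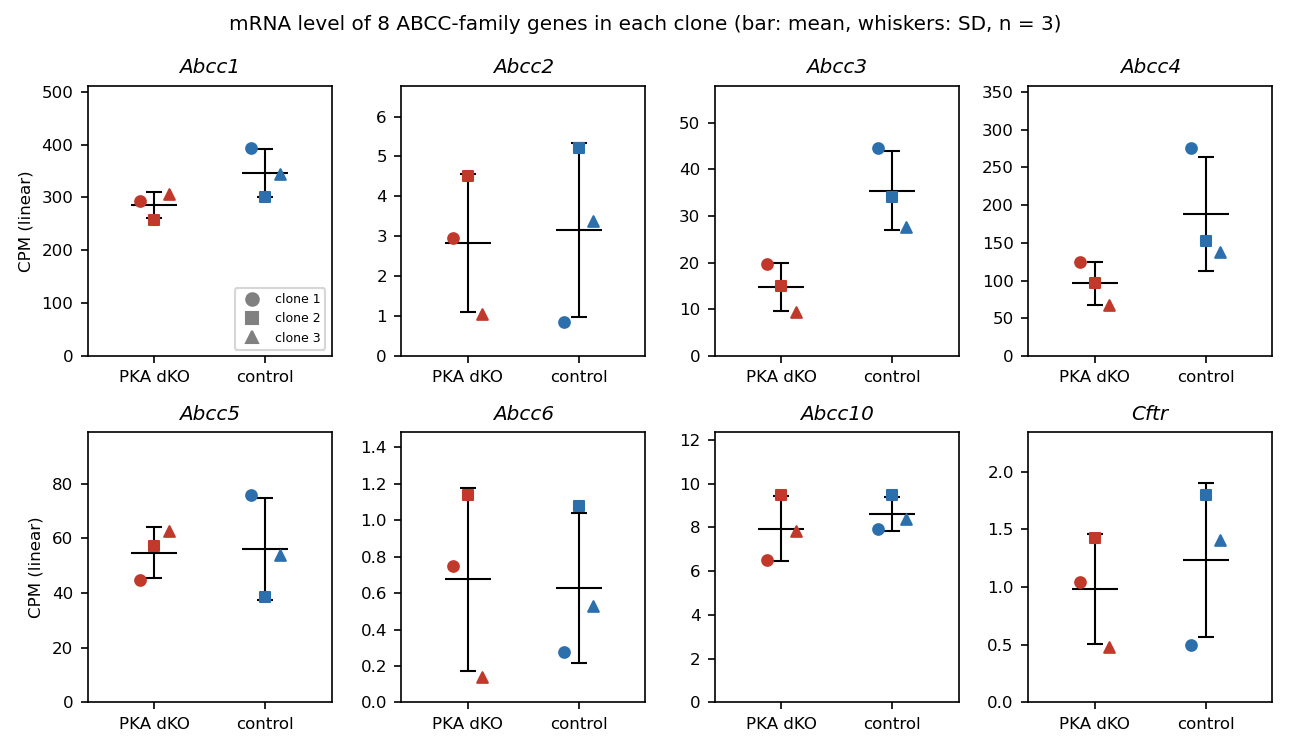
Level of each member in CPM (vertical axes, linear, each with its own range) in 3 PKA dKO clones (red, left) and 3 control clones (blue, right), with the mean and SD. For Abcc3 and Abcc4 every dKO clone lies below every control clone; the other 6 genes overlap.

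Abcc1, an exporter of glutathione conjugates and leukotriene C4, was the most abundant member (chr16:14361560-14475737, plus strand, 31 exons). It had 293, 258 and 306 CPM in dKO clones 1, 2 and 3, against 393, 301 and 345 CPM in control clones 1, 2 and 3. The groups overlapped at 1 clone, since dKO clone 3 lay above control clone 2. The log2 fold change was -0.27 (SE 0.14), with a 95% interval of -0.59 to 0.04 (limma adjusted p = 0.918). The authors' deposited table gives -0.29 with a false discovery rate of 0.233. With chromosome medians removed the Abcc1 groups did not overlap, by a narrow margin (dKO clones up to -0.080, control clones from -0.056). The log2 fold change was then -0.30 (SE 0.14, limma adjusted p = 0.764). With the library split as a term Abcc1 was 1.21-fold lower, with a 95% interval of 1.03 to 1.42 (limma adjusted p = 0.366). Relative to Abcc1 in the same library, Abcc4 per kilobase stood at 0.503, 0.444 and 0.264 in dKO clones 1, 2 and 3, and at 0.833, 0.601 and 0.477 in control clones 1, 2 and 3, which overlap.

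Abcc5, which exports cyclic nucleotides and nucleotide analogs, did not separate the groups (chr16:20331303-20426394, minus strand, 30 exons). It had 44.6, 57.2 and 62.5 CPM in dKO clones 1, 2 and 3, and 75.9, 38.6 and 53.8 CPM in control clones 1, 2 and 3. The control clones alone spanned the dKO range. Its log2 fold change was 0.01 (SE 0.22), with an interval of -0.49 to 0.50, from a level 1.40-fold lower to one 1.41-fold higher. Abcc10, known in humans as an exporter of taxanes and other lipophilic drugs, had 6.50, 9.47 and 7.86 CPM in dKO clones 1, 2 and 3, and 7.94, 9.49 and 8.40 CPM in control clones 1, 2 and 3 (chr17:46303233-46327979, minus strand, 20 exons). It varied least of the 8 over the 6 clones, by 1.46-fold between the highest and the lowest, and its log2 fold change was -0.13 (SE 0.22; interval -0.61 to 0.35). Its transcript overlaps Dlk2 on the opposite strand, and no source used here states whether the authors counted by strand.

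**Figure D4:**
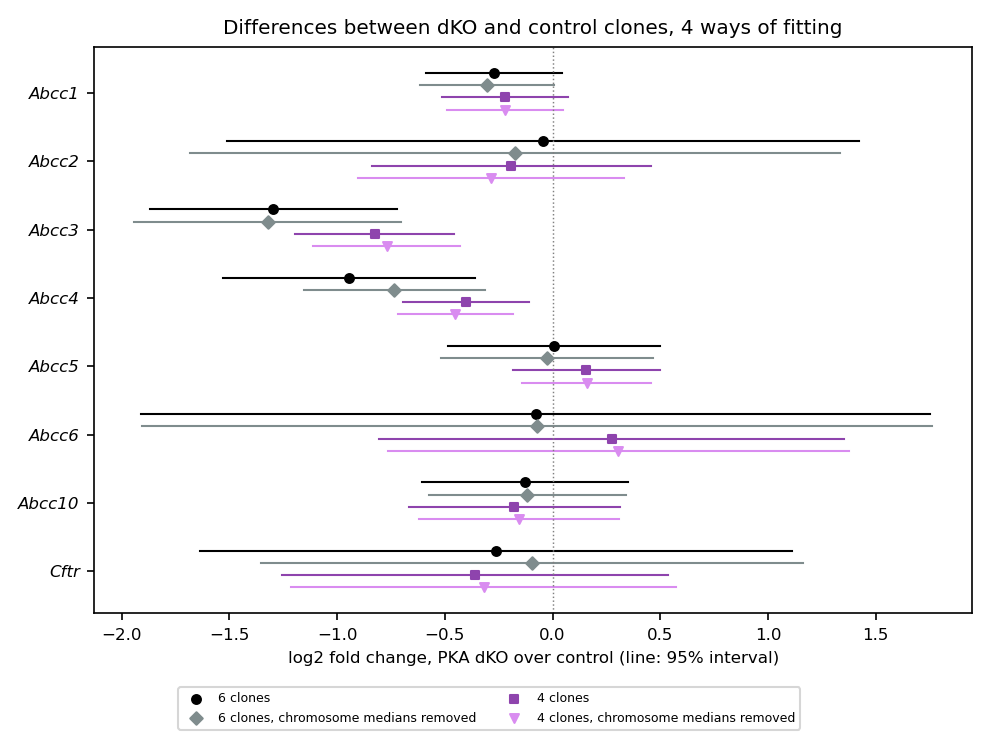
Log2 fold change of PKA dKO over control clones for each member (horizontal axis; points are estimates and lines 95% intervals) from all 6 clones, from 4 clones without dKO clone 3 and control clone 1, and from each with chromosome medians removed. The intervals of Abcc3 and Abcc4 lie below 0 in all 4 fits, Abcc4 stands at -0.40 in 4 clones and at -0.94 in 6, and the intervals of the other 6 genes include 0.

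Cftr mRNA was at a low level in every clone (ENSMUSG00000041301.15, ENSMUST00000045706.11, chr6:18170687-18322768, plus strand, protein-coding, 27 exons). It had 42, 45 and 17 reads in dKO clones 1, 2 and 3, and 18, 55 and 61 reads in control clones 1, 2 and 3. These were 1.05, 1.43 and 0.477 CPM in dKO clones, and 0.498, 1.80 and 1.40 CPM in control clones. The lowest value in each group belonged to the library that stood apart in that group. Means were 0.983 ± 0.477 CPM in dKO clones and 1.23 ± 0.668 CPM in control clones (SD, n = 3 each). The log2 fold change was -0.26 (SE 0.62), with a 95% interval of -1.64 to 1.11, so that neither a level 3.11-fold lower nor one 2.16-fold higher lies outside the interval. No difference of Cftr between the groups was detected in these 6 libraries. With the library split as a term the SE was 0.35 on the same reads, and the 95% interval of the control over dKO ratio was 0.700 to 2.06.

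Per kilobase, 70.8% to 78.5% of the olfactory and vomeronasal receptor transcripts lay below Cftr in dKO clones and 70.2% to 81.1% in control clones. Cftr thus stood within the range of these receptor transcripts, and these data do not separate its level from theirs. Abcc4 exceeded Cftr per kilobase by 74.5-fold to 157-fold in dKO clones and by 93.3-fold to 610.0-fold in control clones. Genes most like Cftr over the 6 clones were Ptprt (Pearson r = 0.9995), Fkbp14 (0.997) and Adamts20 (0.997), and 745 of 12462 genes had an r above 0.9. An antisense gene, Gm15592, and a processed pseudogene, Gm15595, lie within Cftr in the GENCODE M21 annotation. The genes of chromosome 6 deviated by a median of -0.40 in dKO clone 3, against 0.03 in control clone 1. After removal of chromosome medians Cftr had a log2 fold change of -0.09 (SE 0.57).

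Abcc2, the apical exporter of conjugated bilirubin in liver and of organic anions in the proximal tubule, and Abcc6, whose loss causes ectopic mineralization (pseudoxanthoma elasticum), followed the same split of libraries. Abcc2 (chr19:43782192-43840740, plus strand, 32 exons) had 2.96, 4.50 and 1.04 CPM in dKO clones 1, 2 and 3, and 0.858, 5.20 and 3.38 CPM in control clones 1, 2 and 3. Abcc6 (chr7:45976380-46030286, minus strand) had 0.747, 1.14 and 0.140 CPM in dKO clones, and 0.277, 1.08 and 0.530 CPM in control clones, on 5 to 36 and 10 to 33 reads. In both genes the lowest value of each group was that of the library that stood apart. Over the 6 clones Cftr, Abcc2 and Abcc6 ran together (Pearson r = 0.99 for Cftr with Abcc2 and 0.91 for Cftr with Abcc6), and these points share the library split. Log2 fold changes were -0.05 (SE 0.67) for Abcc2 and -0.08 (SE 0.83) for Abcc6. Within the 4 clones they were -0.19 (SE 0.32) and 0.27 (SE 0.53). Abcc2 stood above 92.0% to 97.6% of the receptor transcripts per kilobase in dKO clones and above 84.3% to 97.4% in control clones, whereas Abcc6 stood above 52.9% to 71.7% and 51.7% to 65.9% of them in those groups.

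The other 3 mouse ABCC genes examined, Abcc8 and Abcc9, which encode the sulfonylurea receptor subunits of potassium channels, and Abcc12, were at the same low level, with means over 6 clones of 0.138, 0.111 and 0.176 CPM per kilobase. None of them passed the test, and neither did any gene of the lists drawn up around the family: 0 of 93 tested genes in 7 lists passed with limma, edgeR's quasi-likelihood test or DESeq2, and 4 had an unadjusted limma p under 0.05, beside 6.24% of all genes. Median log2 fold changes were -0.03 for 29 tested ABC exporters outside the subfamily, -0.02 for 10 PDZ scaffolds and sorting partners of Cftr and Abcc4, -0.03 for 19 genes of chloride secretion, -0.12 for 10 organic anion carriers, -0.03 for 16 regulators of ABCC genes, 0.07 for 6 genes of extracellular ATP and pyrophosphate and -0.58 for Abcc8, Abcc9 and Abcc12 (3 of 3 negative, none with an unadjusted p under 0.05), against -0.20 for the 8 members and -0.0015 for all genes.

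Among the partners, Ezr, the gene of ezrin, which links membrane proteins such as Cftr through PDZ scaffolds to actin, had 487, 491 and 662 CPM in dKO clones 1, 2 and 3, and 671, 698 and 662 CPM in control clones 1, 2 and 3. Clone 3 of each group met at nearly the same value, and the difference was -0.32 on the log2 scale with an SE of 0.16 (limma adjusted p = 0.862). Wnk4, a kinase gene that governs chloride cotransport, had 27.0, 30.2 and 25.8 CPM in dKO clones, and 35.0, 33.1 and 34.6 CPM in control clones (log2 fold change -0.31, SE 0.14; limma adjusted p = 0.749). Stk39, the gene of the kinase SPAK that acts below the WNK kinases, went the other way at 8.61, 3.48 and 16.2 CPM in dKO clones, and 1.69, 2.78 and 5.23 CPM in control clones, which overlap (1.42, SE 0.53; limma adjusted p = 0.606). Of the others with the lowest p in their lists, log2 fold changes were 0.49 for the endocytic adaptor gene Dab2, -0.21 for the nuclear receptor gene Rxra, 0.24 for Abcb6, -0.69 for Abcc8, -0.58 for Abcc12, 0.14 for Entpd5 and -0.45 for Nt5e, all with limma adjusted p of 0.977 or more.

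Abca5, Slco4c1 and Slco4a1 were also among the genes with the lowest p in their lists. Abca5 had 0.689 ± 0.111 CPM in dKO clones and 2.00 ± 1.23 CPM in control clones, with a log2 fold change of -1.23 (SE 0.60). Slco4c1, a basolateral organic anion carrier of the proximal tubule, had 1.51 ± 0.888 CPM in dKO clones and 4.33 ± 2.65 CPM in control clones (-1.49, SE 0.60). Slco4a1, a thyroid hormone and organic anion carrier, had 46.1 ± 21.9 CPM in dKO clones and 66.2 ± 15.2 CPM in control clones (-0.60, SE 0.28). All 3 overlapped between the groups. As in any bulk RNA sample, fewer cells that express a gene and less of its RNA in each cell cannot be told apart.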

How the data were processed

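Stranded libraries were prepared from 262 ng of total RNA after removal of ribosomal RNA, per the labels' protocols. Tools named in the submitters' processing notes, without their roles, are HOMER 4.8, edgeR, STAR 2.5.2a and SAMtools, with build GRCm38.p5. No source used here says how reads that fit several places or overlapping genes were assigned. The read columns are headed as read counts, but the deposited values are a signal that the authors scaled so that all libraries share 1 total. Dividing by the step in each library (0.427 to 0.635) left every value (100%) whole to within 0.01 scaled reads. FPKM values and the comparison table, with log2 fold changes, p-values and false discovery rates, are as the authors deposited them; FPKM entered 1 alternative only.

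Groups were compared in R 4.3.3 by limma-trend (limma 3.58.1). It ran on log2 of the scaled values divided by TMM factors (edgeR 4.0.16; 0.909 to 1.07) plus 1 scaled read, with group as the only term and Benjamini-Hochberg adjustment at 0.05 over 16683 genes kept by filterByExpr (at least 10 reads, 15 in total). Fold changes of low genes are understated on this scale. CPM came from recovered reads and TMM-adjusted library sizes, and CPM per kilobase from the deposited transcript length. DESeq2 1.42.0, edgeR's quasi-likelihood test and limma-voom were run on recovered reads. The fit was tested on simulated data. The p-values measure group differences relative to how far clones of 1 group lie apart.

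For chromosome medians, each library's median deviation on a chromosome with at least 20 tested genes was subtracted. Neighbours and likeness used tested genes with a mean of 1 CPM or more. Motifs were searched in RefSeq promoters. Gene IDs and exon numbers come from GENCODE M21, in which the Abcc4 and Abcc6 transcripts have other versions; coordinates are those deposited. The genes named are the 8 members, Prkaca and Prkacb, the 2 genes with the lowest p in each list (1 of which is not reported here), and the 3 genes most like Abcc4 and most like Cftr; Lrp2, Aqp2, Tfcp2l1, Scnn1a, Dlk2, Gm15592, Gm15595 and Atp1b1 were named after their values or positions were seen. Members, lists and tests were chosen with earlier results of these data known.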

Additional observations from a re-analysis of the deposited data

How the results depend on the processing

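Over 20 alternatives to the fit, the negative sign of Abcc1, Abcc3 and Abcc4 held throughout. For Abcc3 and Abcc4, whose groups did not overlap, leaving out clones could hardly turn the sign, so its constancy is no added check. Abcc3 ran from -1.53 to -0.77 and passed in 7 of the 20, with adjusted p from 2.36e-04 to 0.748 over the tests. Abcc4 ran from -1.15 to -0.40 and passed in 3, with adjusted p from 0.00159 to 0.918. The 7 fits that called Abcc3 called 35 to 748 of all genes, and the 3 that called Abcc4 called 196 to 748. Leaving out 1 clone gave -1.53 to -1.01 for Abcc3 and -1.15 to -0.63 for Abcc4, which did not pass. Abcc3 passed without control clone 1 (limma adjusted p = 0.0471), beside 146 of all 17458 genes. It also passed without control clone 3 (limma adjusted p = 0.0445), beside 35 of all 17195 genes. The sign of the small differences turned. Leaving out 1 clone gave -0.78 to 0.55 for Abcc2, -0.24 to 0.26 for Abcc5, -0.61 to 0.70 for Abcc6, -0.26 to 0.0083 for Abcc10 and -0.78 to 0.16 for Cftr. Abcc5 stood at -0.0012 with median-of-ratios factors, -0.034 with edgeR's quasi-likelihood test, -0.042 with DESeq2 and -0.026 with chromosome medians removed. Abcc6 stood at 0.11 with edgeR, 0.094 with DESeq2, 0.017 on log2(FPKM + 0.1), 0.27 within the 4 clones and 0.30 there with chromosome medians removed, a setting chosen after the data were seen. The number of genes past the threshold, 28 in the fit reported, was 17 without TMM factors, 0 without the filter (1094 at an unadjusted p under 0.05), 209 with DESeq2, 91 on FPKM, 71 with the library split as a term, 518 within the 4 clones (264 higher and 254 lower, against 9 higher and 19 lower), 748 there with chromosome medians removed, and 11 to 146 when 1 clone was left out: 11 when dKO clone 2 was left out, 13 for dKO clone 1, 47 for dKO clone 3 and 146 for control clone 1. Of the genes in the 7 lists, 1 of 93 passed on FPKM, beside 91 of all 16683 genes, against 0 in the fit reported. Within the 4 clones 4 of 94 passed, beside 3.00% of all genes. With chromosome medians removed there, 7 of 94 passed, beside 4.34% of all genes. The cause was not tested. Clone numbers are shared by the groups, but same-numbered clones deviated together for clone 2 only (r = -0.36, 0.64 and -0.34 for clones 1, 2 and 3). The dKO clones 1 and 3 correlated best with a control clone of another number. For dKO clone 3 this was control clone 1 (r = 0.66), the other library that stood apart. The number was therefore not taken as a pairing. With the clone number as a block 196 genes passed, Abcc3, Abcc4 and 1 list gene (Stk39) among them. The blocked log2 fold changes of the members are those of the fit reported. Cftr and Abcc6 had 5 to 61 reads a library; with the library split as a term their SE was 0.35 and 0.46 on the same reads, against 0.62 and 0.83, and the share of depth in their error was not tested.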

Other observations

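Within the 4 clones other than dKO clone 3 and control clone 1, 4 genes of the lists were lower in dKO clones past the threshold, none of which passed over all 6. These were the organic anion carrier genes Slco4a1 (log2 fold change -0.90, limma adjusted p = 0.00304) and Slco4c1 (-1.42, adjusted p = 0.0113), the ABC transporter gene Abca5 (-1.73, adjusted p = 0.0198) and Atp1b1, the gene of the sodium pump's beta subunit (-0.50, adjusted p = 0.0335). Each group then holds 2 clones, and 518 of 17252 genes (3.00%) passed in that set, 254 of them (1.47%) lower in dKO clones. Abca5 and Slco4c1 were at low levels, with means over the 3 dKO clones of 0.689 and 1.51 CPM.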
